A study of Mus musculus with 20 samples.

Results

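The 9 genes described here encode surface proteins that are used to tell chronic lymphocytic leukaemia (CLL) B cells and normal B cell subsets apart: Cd5, Ms4a1, Cd200, Fcer2a, Cr2, Spn, Cd93, Cd24a and Cd44. They were taken by name from the 31053 genes of the count tables, and all 9 were measured. The study made single-cell RNA-seq libraries from mouse models of CLL, 20 libraries from 13 mice. The labels give the strain as C57BL/6N, while the methods put the Eµ-TCL1 mice used for the cross on C57BL/6J. Spleens came from 4 Eµ-TCL1 mice (transgene Eµ-hTCL1), 5 Eµ-PRMT5 mice (Eµ-hPRMT5) and 4 double transgenic mice, called Eµ-PRMT5/TCL1 (Eµ-hPRMT5/hTCL1). Lymph nodes came from 3 of the same Eµ-TCL1 mice and from all 4 of the Eµ-PRMT5/TCL1 mice. The human PRMT5 cDNA, coding for an arginine methyltransferase, was driven by an immunoglobulin heavy chain V promoter and the Eµ enhancer, which act in B cells. Human TCL1, a co-activator of the kinase Akt, was the transgene of the other model, and the double transgenic mice came from a cross of both lines. Mice were taken when ill enough to meet removal criteria, so their disease stage was not set by age, and unselected live cells were loaded. In the paper, median survival was longest in Eµ-PRMT5 mice and shortest in double transgenic mice. Age at removal may therefore differ between genotypes, and its part in the genotype comparisons was not tested. The study characterised 1 Eµ-PRMT5 line, called L25, and used it for the cross. It also reports survival in crosses from additional founder lines. The labels give no line for the single Eµ-PRMT5 mice, except that the title of Eµ-PRMT5 spleen 3 carries a name, E4474. The methods also give that name to a founder. The line behind each double transgenic mouse was not established either. The name of the mouse of Eµ-PRMT5/TCL1 spleen 1, which also gave a lymph node, ends in RT, as no other mouse name does. The paper uses these letters for Richter's transformation, but what they mean in this name was not established. This mouse was kept as an ordinary member of its group. Each genotype group here is thus a set of single mice, and the p-values of the genotype comparisons measure the spread between them. In comparisons with the library or the mouse as a block, they measure how much the differences within a library or mouse vary. No library of a mouse without a transgene was analysed here, and Eµ-PRMT5 lymph nodes were not analysed here either.

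CD5 is a T cell protein that is also carried by B-1a cells and by CLL cells, and MS4A1 encodes CD20, a B cell membrane protein that anti-CLL antibodies bind. CD23 (Fcer2a, a low-affinity IgE receptor) and CD21 (Cr2, a complement receptor) are carried by mature B-2 cells, with much CD23 on follicular cells and much CD21 on marginal zone cells, while CD43 (Spn) is carried by B-1 cells, plasma cells and T cells and is low on resting B-2 cells. CD200 is a ligand that damps myeloid cells and is used in the diagnosis of CLL, CD93 and CD24 are high on immature B cells, and CD44 is an adhesion receptor for hyaluronan found on most leukocytes.

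In the GENCODE annotation of the GRCm38 build, all 9 are protein-coding genes. Cd5 (ENSMUSG00000024669) lies at chr19:10717116-10739002 and Ms4a1 (ENSMUSG00000024673) at chr19:11249675-11266241. Cd200 (ENSMUSG00000022661) lies at chr16:45382135-45409053, Fcer2a (ENSMUSG00000005540) at chr8:3681737-3694175 and Cr2 (ENSMUSG00000026616) at chr1:195136811-195176716. Spn (ENSMUSG00000051457) lies at chr7:127132232-127137823, Cd93 (ENSMUSG00000027435) at chr2:148436640-148443563 and Cd44 (ENSMUSG00000005087) at chr2:102811141-102901665. These are on the minus strand, and Cd24a (ENSMUSG00000047139), at chr10:43578284-43584265, is on the plus strand.

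Fcer2a and Cr2 had the most similar order of levels over the spleens of any pair of the 9 genes, so their start regions are shown. Each holds 300 bases from RefSeq (GRCm38.p6), on the minus strand, written 5′ to 3′ and ending 50 bases into the transcript. Capitals mark matches, on either strand, to the core of the Notch partner RBPJ (TGGGAA), an E box (CACCTG), a PU.1 core (GAGGAA) and the octamer (ATGCAAAT); 1 RBPJ and 1 E box match in the second Fcer2a entry overlap.
Fcer2a, chr8:3694125-3694424: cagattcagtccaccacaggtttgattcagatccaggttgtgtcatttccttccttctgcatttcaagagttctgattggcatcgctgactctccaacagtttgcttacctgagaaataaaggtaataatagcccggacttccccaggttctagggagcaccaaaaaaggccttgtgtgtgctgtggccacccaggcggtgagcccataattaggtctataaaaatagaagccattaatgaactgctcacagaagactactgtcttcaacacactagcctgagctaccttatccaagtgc
Fcer2a, chr8:3690812-3691111: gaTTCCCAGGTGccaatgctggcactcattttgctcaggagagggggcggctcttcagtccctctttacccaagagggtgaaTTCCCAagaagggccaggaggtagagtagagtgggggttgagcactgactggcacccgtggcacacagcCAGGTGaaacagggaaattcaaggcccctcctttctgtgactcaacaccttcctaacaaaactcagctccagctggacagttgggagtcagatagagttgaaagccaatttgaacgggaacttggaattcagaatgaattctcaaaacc
Fcer2a, chr8:3690341-3690640: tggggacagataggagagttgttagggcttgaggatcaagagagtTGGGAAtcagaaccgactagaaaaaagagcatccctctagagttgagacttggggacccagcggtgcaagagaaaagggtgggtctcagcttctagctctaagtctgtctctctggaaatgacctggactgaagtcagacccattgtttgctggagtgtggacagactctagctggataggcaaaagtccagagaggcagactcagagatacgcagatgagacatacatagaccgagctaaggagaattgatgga
Cr2, chr1:195176670-195176969: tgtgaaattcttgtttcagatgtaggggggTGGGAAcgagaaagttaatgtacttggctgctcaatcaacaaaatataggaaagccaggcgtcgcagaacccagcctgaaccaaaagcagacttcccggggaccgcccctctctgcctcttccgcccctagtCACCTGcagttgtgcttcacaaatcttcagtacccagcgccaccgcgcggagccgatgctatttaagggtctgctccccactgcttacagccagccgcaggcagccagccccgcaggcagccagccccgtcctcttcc
The first Fcer2a start region held none of the 4 motifs, the second held 2 RBPJ and 2 E box matches, the third held 1 RBPJ match, and that of Cr2 held 1 of each. Of 32851 start regions in the same table, 25.6% held the RBPJ core, 20.2% the E box, 28.3% the PU.1 core and 1.74% the octamer, so the first 3 motifs are frequent letters in windows of this length.

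B cells were taken as cells with at least 3 UMIs of Cd79a and Cd79b together, none of Cd3d, Cd3e or Cd3g and fewer than 20 of Jchain, and T cells as cells with at least 3 UMIs of the Cd3 genes and at most 1 of the Cd79 genes. After removal of doublet calls 84231 cells remained, 30891 of them B cells and 27447 T cells, from libraries of 9348094 to 72440894 UMIs in all barcodes. There were 194 to 5140 B cells a library. T cells numbered 542 or more in 16 of the libraries, and 445, 165, 63 and 50 in the others, the last being Eµ-PRMT5 spleen 4. The summed level of 8 B cell markers was 15884 to 34562 CPM in the B cells of 19 libraries, where CPM scales the UMIs of a gene to a common total over the gated cells of a library. It was 5609 CPM in Eµ-PRMT5 spleen 4, whose B cells also had the highest median depth, 16741 UMIs a cell against 4266 to 11091 elsewhere. All 8 of these markers were detected there, but this library stood apart from the rest. Values without it are given beside each genotype comparison of spleen B cells that reached an unadjusted p of 0.05. The other calls that use it did not change without it: the same 7 genes were called between B and T cells of spleens, and 0 genes between genotypes in spleen T cells. No more than 1.31% of the barcodes of any library were shared with another one.

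The first comparison set the B cells of each library against its own T cells, to show which of the 9 genes belong to B cells in these tissues and which are carried by both. Ms4a1, Cd24a, Fcer2a, Cr2 and Cd200 were higher in B cells, Cd5 and Spn were higher in T cells, and Cd93 and Cd44 did not pass the test. That was the result in both tissues, 7 of 9 genes called in each, against a background of 59.6% of 13041 genes called in spleens (31.3% higher in B cells, 28.3% lower) and 51.3% of 12121 in lymph nodes (25.4% higher, 25.9% lower; edgeR quasi-likelihood test with the library as a block, Benjamini-Hochberg adjusted over all genes). Ms4a1, Fcer2a and Cr2 were too low in T cells to be tested between genotypes there and met the filter on low counts through the B cells, so their calls and their part in these counts are a description. B and T cells of a library share their mouse, their droplets and their free RNA. A majority of all genes differed between the cell types too.

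Ms4a1 had the largest log2 difference of the 9 in spleens, and in lymph nodes it was close to that of Fcer2a. Its B cell level was 64.5 to 1280 CPM in spleens and 366 to 1479 CPM in lymph nodes, while its T cell level was 0 to 8.07 CPM. The log2 difference was 8.97 ± 0.36 (SE, 13 spleens, edgeR adjusted p = 7.94e-12) and 9.44 ± 0.42 (7 lymph nodes, adjusted p = 3.38e-08). Ms4a1 and Cd5 were the 2 genes whose B and T cell levels did not overlap across spleens, as for 6.01% of all genes. In lymph nodes these were Ms4a1, Cd24a, Fcer2a and Cr2, as for 18% of all genes.

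Cd24a, which codes for a small glycosylphosphatidylinositol-anchored protein, was at 204 to 1499 CPM in spleen B cells and at 0 to 51.6 CPM in the T cells of 12 spleens. In Eµ-PRMT5/TCL1 spleen 1 its T cell level was 234 CPM, beside a summed level of 3 erythroid markers of 535 CPM, the highest of any T cell group. Red cell precursors carry CD24, and the part of their RNA in this value was not tested. The B cell level was higher by a log2 difference of 5.42 ± 0.59 in spleens (adjusted p = 1.01e-06) and 6.92 ± 0.45 in lymph nodes (adjusted p = 6.22e-07), where the T cell level was 1.37 to 31.5 CPM.

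Fcer2a and Cr2 were nearly absent from T cells. Spleen T cells held 6 Fcer2a UMIs in all, from Eµ-PRMT5 spleens 1, 3 and 5, libraries whose B cells carried the gene, against 1586 in spleen B cells (log2 difference 7.71 ± 0.34, adjusted p = 6.38e-10). Lymph node T cells held none, and lymph node B cells held 158, or 2.72 CPM over the pooled cells. With 3 UMIs as the floor for the pooled T cells (0.0566 CPM), the B cell level was at least 48.1-fold higher. The fitted log2 difference in lymph nodes was 9.53 ± 0.95 (edgeR adjusted p = 0.00155), a size that depends on the prior count. Eµ-TCL1 lymph node 1 held 53 of the 158 UMIs, and without it the B cell level was at least 21.5-fold higher and the fitted log2 difference was 7.62 (adjusted p = 0.00764). For Cr2 the counts were 1026 UMIs in B cells against 5 in T cells in spleens (6.65 ± 0.83, adjusted p = 1.10e-05) and 94 against 1 in lymph nodes (5.48 ± 0.76, adjusted p = 1.81e-04).

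Cd200 was higher in the B cells than in the T cells of 12 of 13 spleens and 7 of 7 lymph nodes. B cell levels were 7.10 to 45.1 CPM in spleens and 21.4 to 110 CPM in nodes, against 0 to 16.6 and 0.833 to 26.9 CPM in T cells. The exception was Eµ-PRMT5 spleen 1, with 15.1 CPM in B cells and 16.6 CPM in T cells. This came to a log2 difference of 3.13 ± 0.58 in spleens (adjusted p = 2.44e-04) and 3.90 ± 0.29 in lymph nodes (adjusted p = 1.96e-06).

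Cd5 was lower in B cells than in T cells in every library. Spleen B cells had 2.38 to 54.7 CPM and spleen T cells 56.1 to 561 CPM, so the ranges came close without overlap. Its log2 difference was -2.43 ± 0.36 in spleens (adjusted p = 3.27e-05) and -1.53 ± 0.24 in lymph nodes (adjusted p = 3.63e-04). Spn followed the same direction with a smaller gap, 9.53 to 63.6 CPM in spleen B cells and 32 to 140.6 CPM in spleen T cells, with log2 differences of -1.05 ± 0.18 (adjusted p = 1.41e-04) and -0.87 ± 0.21 (adjusted p = 0.00503). Cd44 had 63.3 to 241 CPM in spleen B cells and 63.9 to 232 CPM in spleen T cells, with a log2 difference of 0.11 ± 0.16 (adjusted p = 0.562). Cd93 was low in both cell types, 0 to 19.5 CPM in spleen B cells and 0 to 15.5 CPM in spleen T cells (log2 difference -0.36 ± 0.60, adjusted p = 0.636; 0.02 ± 0.58 without Eµ-PRMT5 spleen 4). Of 35 other surface genes of B cell subsets or CLL, 34 were tested, and 27 were called in spleens (18 higher in B cells, 9 lower) and 28 in lymph nodes (19 higher, 9 lower).

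**Figure D1:**
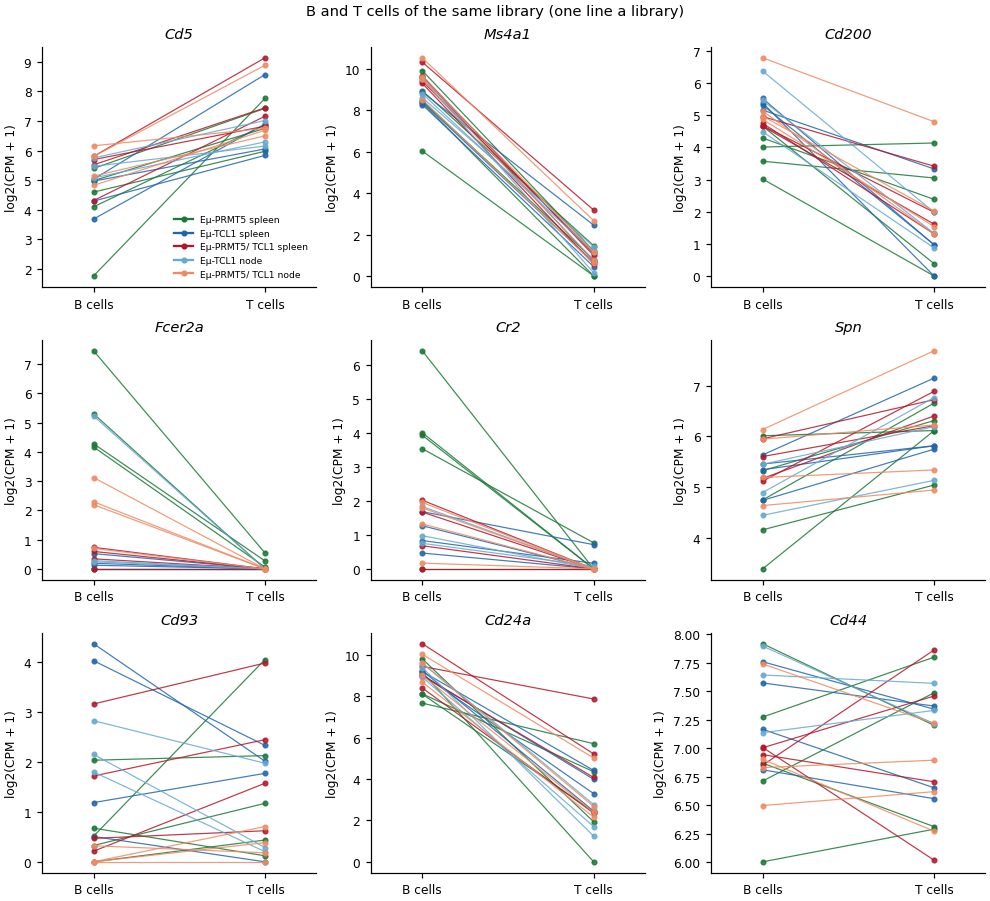
Level of each gene in the gated B cells (left) and T cells (right) of the 20 libraries, on a log2(CPM + 1) axis that is scaled to each gene, with one line per library in its group's colour. The lines of Ms4a1 and Cd24a go down in all libraries and those of Cd5 and Spn go up in all, while those of Cd93 and Cd44 cross.

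The next comparisons asked how the B cells of the 3 genotypes differed in the spleen. B cells of Eµ-PRMT5 spleens carried Fcer2a and Cr2 in 4 of 5 mice, and those of both TCL1-carrying genotypes were near 0 for Fcer2a and low for Cr2. Cd200 was lowest in Eµ-PRMT5, intermediate in Eµ-PRMT5/TCL1 and highest in Eµ-TCL1 mice, with every Eµ-TCL1 spleen above every other one. None of these passed the test over all genes with all 13 spleens in the fit; Fcer2a, Cr2 and Cd200 passed for Eµ-PRMT5 against Eµ-TCL1 spleens once Eµ-PRMT5 spleen 4 was left out. Of these, Fcer2a met the filter on low counts only through the Eµ-PRMT5 spleens in which it was high, so its call and its part in the counts of called genes are a description and not support for a difference. Both Eµ-TCL1 and Eµ-PRMT5 spleens serve in 2 of the 3 comparisons, so the comparisons are not independent of each other. Gated B cells also mixed cells of a library's most frequent light chain V gene with others, in unlike shares. That gene held 8.61% to 79.0% of the assigned cells in Eµ-PRMT5 spleens 1, 2, 3 and 5, and 99.7% in spleen 4. It held 50% to 99.8% in Eµ-TCL1 and 92.3% to 99.9% in Eµ-PRMT5/TCL1 spleens. The part of this mix in the differences was not tested.

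For Eµ-PRMT5 against Eµ-TCL1 spleens, 0 of 9 genes passed an adjusted p of 0.05 by edgeR, against 3 of 11536 genes in all, or 0.026%. At an unadjusted p under 0.05 there were 4 of the 9 (Fcer2a and Cr2 higher in Eµ-PRMT5, Cd200 and Cd93 lower) against 1965 genes, or 17%. DESeq2 called 3 of the 9 (Cd200, Fcer2a and Cr2) against 675 genes, or 5.85%. The median log2 difference of the 9 was -0.41, beside 0.01 over all genes tested. Without Eµ-PRMT5 spleen 4, edgeR called the same 3 of the 9 genes as DESeq2, and 343 of 11280 genes in all (3.04%).

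When double transgenic spleens were set against Eµ-TCL1 ones, 0 of the 9 passed, against 1 gene in all (0.00867%), and 1 of the 9 (Cd200) had an unadjusted p under 0.05, against 525 genes (4.55%). DESeq2 called 0 of the 9 and 20 genes in all (0.173%). For Eµ-PRMT5/TCL1 against Eµ-PRMT5 spleens, 0 of the 9 passed, against 0 genes in all (0.0%), and 3 of the 9 had an unadjusted p under 0.05 (Cd200 higher in Eµ-PRMT5/TCL1, Fcer2a and Cr2 lower), against 1018 genes (8.82%). DESeq2 called Fcer2a and Cr2 there, and 108 genes in all (0.936%). The median log2 difference of the 9 genes was 0.24 in the former comparison and 0.66 in the latter, beside 0.00 and -0.04 over all genes. Across these 3 comparisons, 0 of the 34 other surface genes tested were called by edgeR, with 5, 1 and 7 at an unadjusted p under 0.05.

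**Figure D2:**
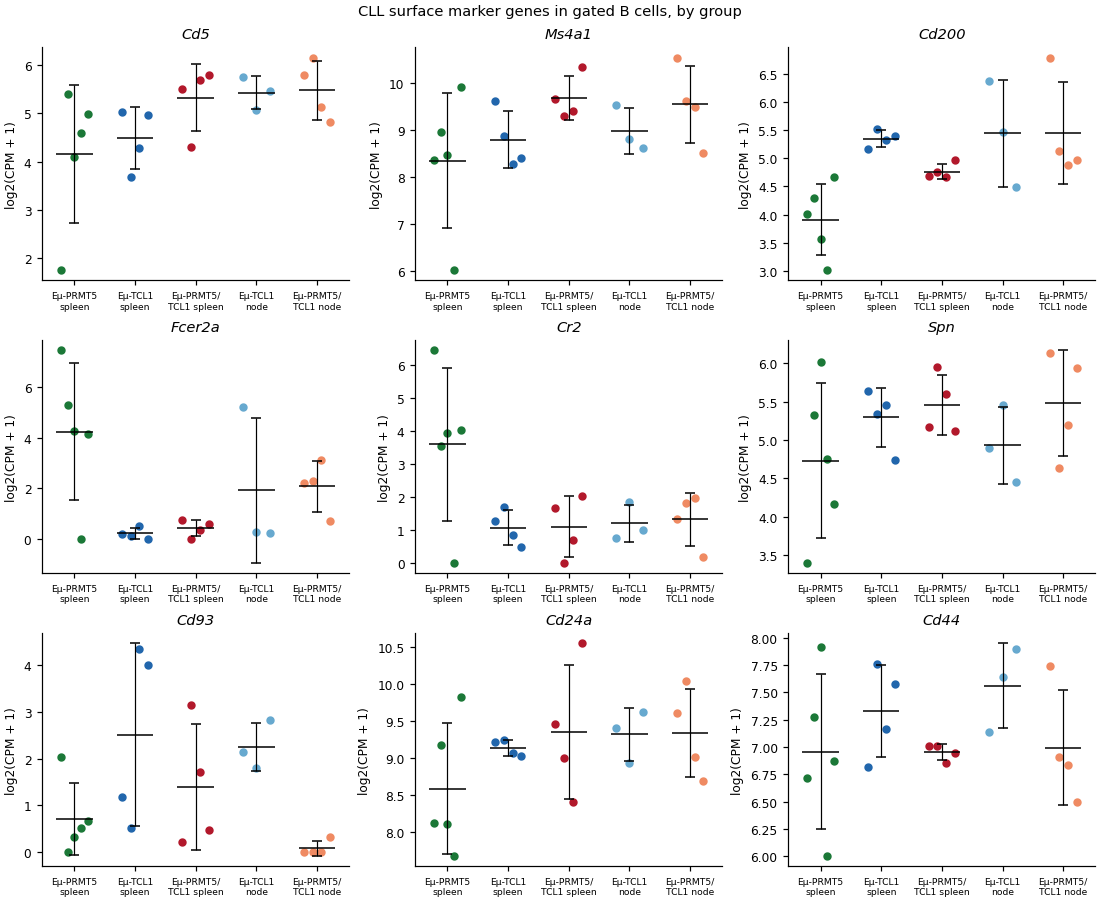
Level of each of the 9 genes in gated B cells on a log2(CPM + 1) axis scaled to each gene; points are libraries, horizontal lines the group means and bars 1 SD. Fcer2a and Cr2 are high in 4 of the 5 Eµ-PRMT5 spleens, and the Cd200 points of the 4 Eµ-TCL1 spleens lie above those of the other spleens.

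Fcer2a was at 174, 38.4, 18.4, 0 and 16.9 CPM in the B cells of Eµ-PRMT5 spleens 1 to 5. In Eµ-TCL1 spleens 1 to 4 it was at 0.141, 0.0899, 0.435 and 0 CPM, and in Eµ-PRMT5/TCL1 spleens 1 to 4 at 0.666, 0, 0.268 and 0.511 CPM. The 8 TCL1-carrying spleens thus held 42 UMIs together, and Eµ-PRMT5 spleen 1 alone held 1241. Every TCL1-carrying spleen was below 4 of the 5 Eµ-PRMT5 spleens, and Eµ-PRMT5 spleen 4, with no UMI, lay among them. The log2 difference of Eµ-PRMT5 against Eµ-TCL1 was 8.24 ± 1.65 (means 49.5 and 0.167 CPM, n = 5 and 4, edgeR adjusted p = 0.0882) with all spleens, and 8.61 ± 1.07 (adjusted p = 0.00840) without Eµ-PRMT5 spleen 4. The adjusted p was 7.68e-05 to 0.283 over the other settings in which Fcer2a was tested (0.0902 with no filter on low counts). In the 4 fits without Eµ-PRMT5 spleen 1, 2, 3 or 5 it failed the filter and had no test. That of Eµ-PRMT5/TCL1 against Eµ-PRMT5 was -6.69 ± 1.49 (adjusted p = 0.348) and, without Eµ-PRMT5 spleen 4, -6.99 ± 0.96 (adjusted p = 0.0310, where 3 of 11280 genes or 0.0266% were called), with adjusted p of 0.00238 to 0.726 over the other settings, again apart from those 4 fits. For Eµ-PRMT5/TCL1 against Eµ-TCL1 it was 1.56 ± 1.72 (adjusted p = 1).

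The share of B cells with a Fcer2a UMI, after each cell was thinned to 1000 UMIs, was 14.2%, 6.23%, 1.90%, 0% and 2.06% in Eµ-PRMT5 spleens 1 to 5. Before thinning the shares were 41.4%, 16.5%, 5.37%, 0% and 5.73%. Eµ-PRMT5 spleen 4, the deepest library per cell, had no UMI in 797 B cells, which allows a share of up to 0.376% of cells with a UMI; this limits detected cells and not cells that express the gene. In T cells of these spleens the share before thinning was 0 to 0.184%, at median depths of 5128 to 9713 UMIs a cell against 4266 to 16741 in B cells.

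Cr2 was at 85.1, 10.6, 14.3, 0 and 15.1 CPM in Eµ-PRMT5 spleens 1 to 5. It was at 1.41, 2.22, 0.783 and 0.381 CPM in Eµ-TCL1 spleens and at 2.19, 0, 0.604 and 3.07 CPM in Eµ-PRMT5/TCL1 spleens. The same 4 Eµ-PRMT5 spleens as for Fcer2a were above all TCL1-carrying ones, and spleen 4 again had no UMI. The log2 difference of Eµ-PRMT5 against Eµ-TCL1 was 4.20 ± 1.27 (means 25 and 1.20 CPM, edgeR adjusted p = 0.142), and 4.52 ± 0.87 (adjusted p = 0.0355; 0.00882 to 0.358 over all other settings) without Eµ-PRMT5 spleen 4. Without Eµ-PRMT5 spleen 1, the one with the most Cr2, it was 2.89 (adjusted p = 0.358). For Eµ-PRMT5/TCL1 against Eµ-PRMT5 it was -3.95 ± 1.25 (adjusted p = 0.453), and -4.24 ± 0.86 (adjusted p = 0.0989; 0.0360 to 0.891 over all other settings) without that spleen. Without Eµ-PRMT5 spleen 1 it was -2.68 (adjusted p = 0.891). Over the 13 spleens the levels of Fcer2a and Cr2 had a Spearman rho of 0.89, given as a description of libraries that also share genotype and depth.

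Cd200 was at 15.1, 18.6, 10.9, 7.10 and 24.3 CPM in Eµ-PRMT5 spleens 1 to 5. It was at 34.9, 45.1, 39.0 and 40.9 CPM in Eµ-TCL1 spleens and at 24.6, 25.9, 24.3 and 30.1 CPM in Eµ-PRMT5/TCL1 spleens. All 4 Eµ-TCL1 spleens were above the 9 other spleens, and in both comparisons Cd200 was the only one of the 9 genes without overlap, where 4.96% (Eµ-PRMT5) and 3.31% (Eµ-PRMT5/TCL1) of genes had none. Group means were 15.2 ± 6.70, 40.0 ± 4.23 and 26.3 ± 2.70 CPM (SD, n = 5, 4 and 4) in the Eµ-PRMT5, the Eµ-TCL1 and the double transgenic spleens. The log2 difference of Eµ-PRMT5 against Eµ-TCL1 was -1.50 ± 0.26 (edgeR adjusted p = 0.0827). It was -1.37 ± 0.24 (adjusted p = 0.0294) without Eµ-PRMT5 spleen 4 and -1.77 ± 0.21 (adjusted p = 0.0117) without Eµ-PRMT5 spleen 5, and the adjusted p ran from 1.66e-05 to 0.274 over all other settings. For Eµ-PRMT5/TCL1 against Eµ-TCL1 it was -0.71 ± 0.27 (adjusted p = 1; -0.71 ± 0.23, adjusted p = 0.682, without Eµ-PRMT5 spleen 4), and for Eµ-PRMT5/TCL1 against Eµ-PRMT5 it was 0.80 ± 0.26 (adjusted p = 0.461; 0.66 ± 0.24, adjusted p = 0.197, without Eµ-PRMT5 spleen 4).

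**Figure D3:**
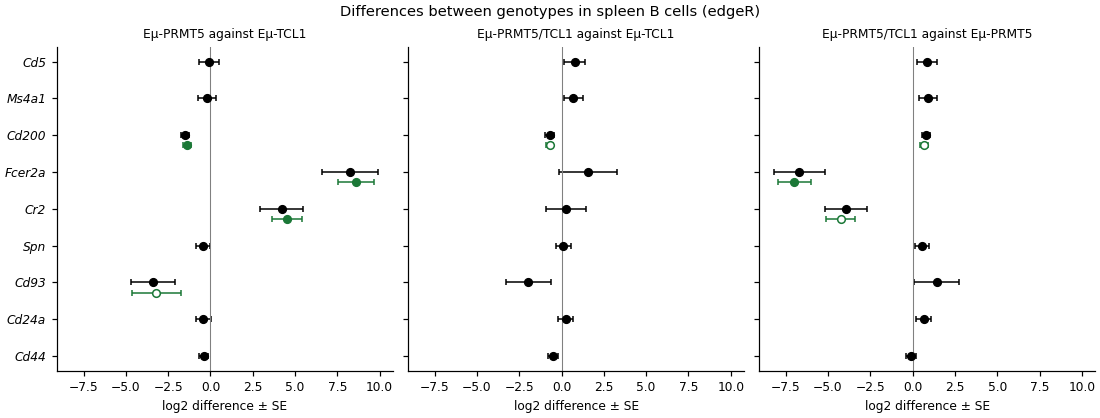
log2 differences ± SE of the 9 genes in spleen B cells in the 3 genotype comparisons (edgeR). Black points use all 13 spleens, and no gene passed an adjusted p of 0.05 there; green points, for genes with an unadjusted p under 0.05, leave out Eµ-PRMT5 spleen 4 and are filled where the adjusted p was then under 0.05 (Fcer2a, Cr2 and Cd200 on the left, Fcer2a on the right).

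Cd5, which B-1a cells and CLL cells carry, differed as much within groups as between them. Its B cell level was 2.38, 41.0, 16.1, 23.1 and 30.6 CPM in Eµ-PRMT5 spleens 1 to 5. It was 31.6, 11.8, 18.5 and 30.2 CPM in Eµ-TCL1 spleens and 44.8, 18.8, 50.7 and 54.7 CPM in Eµ-PRMT5/TCL1 spleens. The 3 highest of the 13 spleens were Eµ-PRMT5/TCL1 spleens 4, 3 and 1, and the lowest was Eµ-PRMT5 spleen 1, the one with the most Fcer2a and Cr2. Its log2 differences were 0.77 ± 0.61 for Eµ-PRMT5/TCL1 against Eµ-TCL1 (means 42.3 and 23.1 CPM, adjusted p = 1), 0.86 ± 0.57 against Eµ-PRMT5 (adjusted p = 0.661), and -0.09 ± 0.58 for Eµ-PRMT5 against Eµ-TCL1 (adjusted p = 0.957, edgeR). With 1000 UMIs a cell, 0.386% to 5.36% of spleen B cells had a Cd5 UMI, against 4.00% to 37.0% of the T cells of the same spleens, so the gene was undetected in most B cells at this depth.

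Ms4a1 was at 328, 492, 351, 64.5 and 964 CPM in Eµ-PRMT5 spleens 1 to 5. It was at 780, 468, 307 and 337 CPM in Eµ-TCL1 spleens and at 807, 630, 679 and 1280 CPM in Eµ-PRMT5/TCL1 spleens. The Eµ-PRMT5/TCL1 values overlapped those of both other groups, and the lowest value of all was that of Eµ-PRMT5 spleen 4. The log2 differences were 0.70 ± 0.56 against Eµ-TCL1 (adjusted p = 1) and 0.92 ± 0.52 against Eµ-PRMT5 (adjusted p = 0.626, edgeR).

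Cd24a was at 278, 578, 276, 204 and 904 CPM in Eµ-PRMT5 spleens 1 to 5. It was at 592, 608, 535 and 522 CPM in Eµ-TCL1 spleens and at 700.4, 512, 339 and 1499 CPM in Eµ-PRMT5/TCL1 spleens. Its Eµ-TCL1 values lay close together, 564 ± 41.9 CPM (SD, n = 4), inside the range of each other group. Cd24a and Ms4a1 were highest in the same spleen, Eµ-PRMT5/TCL1 spleen 4, and lowest in the same one, Eµ-PRMT5 spleen 4 (Spearman rho 0.75 over 13 spleens).

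Spn was at 9.53, 39.1, 63.6, 25.9 and 16.9 CPM in Eµ-PRMT5 spleens 1 to 5, at 48.7, 39.7, 42.9 and 25.8 CPM in Eµ-TCL1 spleens, and at 35.1, 60.9, 47.6 and 33.8 CPM in Eµ-PRMT5/TCL1 spleens. The Eµ-PRMT5 spleens held both the highest and the lowest value. Cd44 was at 104, 154, 241, 63.3 and 116 CPM in Eµ-PRMT5 spleens 1 to 5, at 111, 216, 143 and 190 CPM in Eµ-TCL1 spleens, and at 128, 128, 115 and 122 CPM in Eµ-PRMT5/TCL1 spleens. Eµ-PRMT5 spleen 3 was the highest of the 13 for both genes, and the Eµ-PRMT5/TCL1 spleens had the narrowest spread of Cd44, 123 ± 6.17 CPM (SD, n = 4). No genotype comparison of Spn or Cd44 in spleen B cells reached an unadjusted p of 0.05; the smallest was 0.105, for Cd44 in double transgenic against Eµ-TCL1 spleens (log2 difference -0.51 ± 0.29, edgeR).

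Cd93 was high in single mice. Its B cell level was 19.5 and 15.2 CPM in Eµ-TCL1 spleens 3 and 4 and 1.27 and 0.420 CPM in Eµ-TCL1 spleens 1 and 2. It was 3.08, 0, 0.253, 0.426 and 0.594 CPM in Eµ-PRMT5 spleens 1 to 5, and 0.159, 7.90, 2.28 and 0.383 CPM in Eµ-PRMT5/TCL1 spleens. The groups overlapped, and the log2 difference of Eµ-PRMT5 against Eµ-TCL1 was -3.39 ± 1.31 (edgeR adjusted p = 0.218; -3.21 ± 1.45, adjusted p = 0.181, without Eµ-PRMT5 spleen 4; 0.0671 to 0.525 over all other settings). Leaving out 1 spleen at a time moved it from -4.67 (without Eµ-PRMT5 spleen 1) to -2.64 (without Eµ-TCL1 spleen 3). Neutrophil and monocyte precursors carry CD93, and a summed level of 8 myeloid markers of 146 to 3240 CPM was present in the B cells of TCL1-carrying spleens, against 32.4 to 1962 CPM in Eµ-PRMT5 spleens; its part in Cd93 was not tested.

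In lymph nodes, the comparison asked what the PRMT5 transgene adds to TCL1 in the other tissue. Cd93 had the lowest p among the 9. It was at 3.43, 2.47 and 6.06 CPM in the B cells of Eµ-TCL1 lymph nodes 1 to 3, and at 0, 0, 0 and 0.249 CPM in those of Eµ-PRMT5/TCL1 lymph nodes 1 to 4, which held 2 UMIs together. There was no overlap, as for 6.3% of all genes. Of the 9 genes 0 passed by edgeR, against 0 of 10896 genes (0.0%), and Cd93 was the one with an unadjusted p under 0.05, against 740 genes (6.79%). Its log2 difference was -5.55 ± 1.00 (edgeR adjusted p = 0.442). DESeq2 called Cd93 alone of the 9 (adjusted p = 0.00469), and 64 genes in all (0.587%). Cd93 met the filter on low counts through the Eµ-TCL1 nodes alone, so this call is a description. Over all other settings the adjusted p of Cd93 was 0.00469 to 1, and leaving out 1 node at a time gave log2 differences of -8.08 to -4.79. The 8 myeloid markers summed to 0 to 713 CPM in the B cells of Eµ-TCL1 nodes, against 0.563 to 4552 CPM in those of double transgenic nodes, and their part in Cd93 was not tested.

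Fcer2a was at 36.3, 0.215 and 0.182 CPM in Eµ-TCL1 lymph nodes 1 to 3 and at 3.57, 3.90, 7.69 and 0.622 CPM in Eµ-PRMT5/TCL1 lymph nodes 1 to 4. Eµ-TCL1 lymph node 1 was above, and the other Eµ-TCL1 nodes below, all Eµ-PRMT5/TCL1 nodes. Cr2 stayed at 0.685, 2.58 and 0.970 CPM against 1.5, 2.47, 2.88 and 0.124 CPM, within the range it had in TCL1-carrying spleens. Cd200 was at 82.3, 43.1 and 21.4 CPM in the Eµ-TCL1 nodes. In the Eµ-PRMT5/TCL1 nodes it was at 110, 34.2, 28.4 and 30.5 CPM, with node 1 far above the rest.

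The remaining genes also overlapped between the genotypes in nodes. Ms4a1 was at 738, 445 and 389.7 CPM in Eµ-TCL1 and at 1479, 781, 720 and 366 CPM in Eµ-PRMT5/TCL1 lymph nodes (log2 difference 0.74 ± 0.38, adjusted p = 0.807). Cd5 was at 52.8, 32.7 and 43.2 CPM against 54.7, 70.5, 34.1 and 27.3 CPM (0.20 ± 0.30, adjusted p = 0.941). Cd24a, Spn and Cd44 had log2 differences of 0.13 ± 0.32, 0.69 ± 0.41 and -0.51 ± 0.31, at adjusted p of 0.969, 0.834 and 0.840 (edgeR). Of the 34 other surface genes tested, 0 were called and 6 had an unadjusted p under 0.05.

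The 7 mice with both tissues allowed lymph node B cells to be set against spleen B cells of the same animal. Fcer2a was higher in the lymph node in 7 of 7 mice, Cd5 in 5 of 7, and Cd93 was lower in 5 of 7. The nodes held 158 Fcer2a UMIs in all. Of these, 156, 155 and 153 remained without Eµ-TCL1 node 2, Eµ-TCL1 node 3 or Eµ-PRMT5/TCL1 node 4. The direction of Fcer2a in those mice thus rests on few UMIs, near the floor of 3. With the mouse as a block, 0 of 9 genes passed by edgeR, against 1 of 12371 genes (0.00808%). At an unadjusted p under 0.05 there were 3 of the 9 (Fcer2a and Cd5 higher in lymph nodes, Cd93 lower), against 1263 genes (10.2%). DESeq2 called Fcer2a alone of the 9, and 206 genes in all (1.67%). Fcer2a was at 0 to 0.666 CPM in all 7 spleens and met the filter on low counts through the nodes, so its calls in this and the other fits by tissue are a description.

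Fcer2a was at 0.141, 0.0899 and 0 CPM in the spleens and at 36.3, 0.215 and 0.182 CPM in the nodes of the 3 Eµ-TCL1 mice, in the order of the nodes. In the 4 Eµ-PRMT5/TCL1 mice the pairs were 0.511 and 3.57, 0.666 and 3.90, 0.268 and 7.69, and 0 and 0.622 CPM. The largest step, in the mouse of Eµ-TCL1 spleen 1, came with 194 B cells and 53 Fcer2a UMIs in the node. Over all 7 mice the log2 difference was 4.05 ± 0.73 (edgeR adjusted p = 0.131). The adjusted p was 0.00555 with no filter on low counts, where 0.646% of genes were called, and 1.77e-05 to 0.421 over all settings. Single mice moved the value, to 2.70 (adjusted p = 0.395) without the mouse of Eµ-TCL1 spleen 1 and to 5.32 (adjusted p = 0.0406) without that of Eµ-TCL1 spleen 2. It was 4.76 ± 1.21 within Eµ-TCL1 mice (edgeR adjusted p = 0.643, 0.0452 by DESeq2, which called 0.097% of genes). Without the mouse of Eµ-TCL1 spleen 1 that value was 2.05, and without that of Eµ-TCL1 spleen 2 it was 7.29. Within double transgenic mice the log2 difference was 3.34 ± 0.78 (edgeR adjusted p = 0.384, 0.0186 by DESeq2, which called 0.469% of genes). The difference between the genotypes was -1.43 ± 1.30 (adjusted p = 1), so a genotype difference of this step was not detected.

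Cd5 had a log2 difference of 0.54 ± 0.19 between lymph node and spleen (adjusted p = 0.362). The step was 0.83 ± 0.28 in Eµ-TCL1 mice, whose 3 nodes were all above their 3 spleens (7.72% of genes had no overlap there), and 0.25 ± 0.25 in Eµ-PRMT5/TCL1 mice. In Eµ-TCL1 mice it was 0.53 without the mouse of Eµ-TCL1 spleen 2 and 1.02 without that of Eµ-TCL1 spleen 1. The difference between the genotypes was -0.59 ± 0.37 (edgeR adjusted p = 1). Cd93 had a log2 difference of -2.15 ± 0.68 (adjusted p = 0.325), made of 0.60 ± 0.70 in Eµ-TCL1 and -4.90 ± 1.10 in Eµ-PRMT5/TCL1 mice (adjusted p = 0.342). For the latter mice DESeq2 called Cd93 lower in nodes (-4.28 ± 1.08, adjusted p = 0.0277) among 58 of 12371 genes (0.469%). With a B cell gate of 6 UMIs the values were nearer 0, at -2.66 ± 1.26 in these mice and -1.01 ± 0.74 in all 7 (edgeR adjusted p = 0.744 and 0.728), and leaving out 1 mouse at a time gave -2.65 to -1.49 over all mice, the last without that of Eµ-TCL1 spleen 4. Its difference between the genotypes was -5.50 ± 1.33 (adjusted p = 1; -3.28 ± 1.46 with that gate), in a test that called 0 of 9 and 0 of 12371 genes by edgeR, with Cd93 and 254 genes in all (2.05%) under an unadjusted p of 0.05 and 1 gene (0.00808%) called by DESeq2. Ms4a1, Cd24a, Spn, Cd44 and Cr2 had log2 differences between -0.13 and 0.39, each within 1 SE of 0, and Cd200 had 0.39 ± 0.27.

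**Figure D4:**
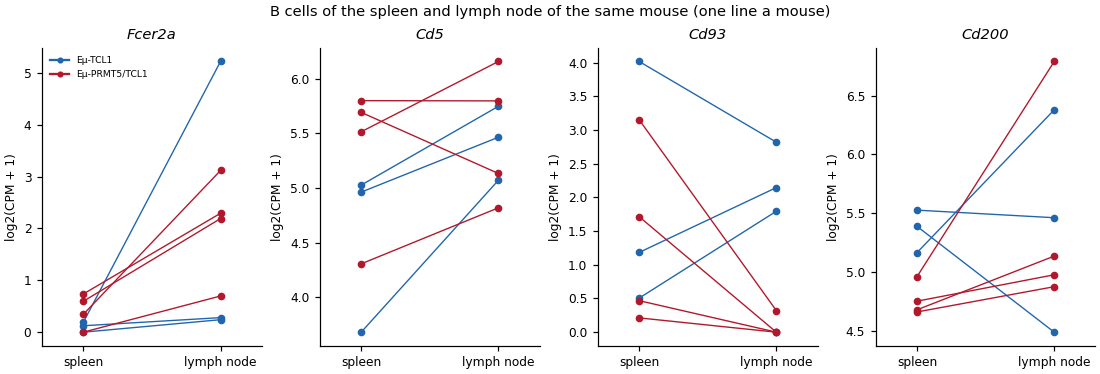
Level of Fcer2a, Cd5, Cd93 and Cd200 in the B cells of the spleen (left) and lymph node (right) of the 7 mice with both, on log2(CPM + 1) axes that do not all start at 0; each line is a mouse. All 7 Fcer2a lines go up, some of them from few UMIs near the floor, and the Cd93 lines of the 4 Eµ-PRMT5/TCL1 mice go down to 0.249 CPM or less.

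In T cells, no genotype or tissue comparison called any of the 9 genes by edgeR with the filter on low counts. Fcer2a, Cr2 and Ms4a1 were too low there to be tested between genotypes, and the remaining 6 in spleens had unadjusted p of 0.0598 or more in all 3 comparisons. By edgeR 4 of 11095 genes (0.0361%) were called for Eµ-PRMT5 against Eµ-TCL1 and 0.0% in the other comparisons, while 6.07%, 7.23% and 4.8% had an unadjusted p under 0.05. DESeq2 called 0 of the 6 genes, and 0.216%, 0.027% and 0.0451% of all genes. In lymph nodes 5 genes were tested, of which 0 were called, against 0.0% of 10436 genes. Cd24a (log2 difference 2.42 ± 0.95, edgeR adjusted p = 0.296; 0.73 without Eµ-PRMT5/TCL1 lymph node 2) and Cd44 (-0.53 ± 0.17, adjusted p = 0.238) had an unadjusted p under 0.05 there, as did 14.7% of all genes, and DESeq2 called 0 of the 5 and 143 genes in all (1.37%).

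Cd5 in T cells was high in single libraries. It was at 561 CPM in Eµ-PRMT5/TCL1 spleen 4 and at 471 CPM in lymph node 1 of the same mouse, and at 378 CPM in Eµ-TCL1 spleen 1, whose mouse had 128 CPM in its lymph node. In the other 17 libraries, that node included, it was at 56.1 to 216 CPM. The highest T cell levels of Ms4a1 (8.07 and 5.38 CPM) were in the same spleen and node as the highest T cell levels of Cd5.

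Between lymph node and spleen, 0 of the 7 genes tested in T cells were called, against 26 of 11368 genes (0.229%). Cd24a (log2 difference -1.95 ± 0.45, adjusted p = 0.130) and Cd93 (-2.75 ± 0.69, adjusted p = 0.159) were each lower in the node in 6 of 7 mice, and Cd5 was too (-0.45 ± 0.20, adjusted p = 0.390, edgeR). These 3 genes had an unadjusted p under 0.05, as had 12.8% of all genes. DESeq2 called Cd24a alone of the 7 (adjusted p = 0.00262; 0.00262 to 0.623 over all other settings), and 266 genes in all (2.34%). With no filter on low counts edgeR called Cd24a (adjusted p = 0.0122) and Cd93 (adjusted p = 0.0409) among 177 of 17930 genes (0.987%). Without the mouse of Eµ-TCL1 spleen 1 the Cd24a difference was -1.39 (adjusted p = 0.623), that of Cd93 -2.02 (adjusted p = 0.769) and that of Cd5 -0.23 (adjusted p = 0.916, edgeR). T cells of lymph nodes held 0 to 0.305 CPM of the 3 erythroid markers together, against 1.61 to 535 CPM in the spleens of these mice, and the part of those cells in the Cd24a difference was not tested. The 2 highest T cell levels of Cd93 were 15.5 CPM in Eµ-PRMT5 spleen 4 and 14.7 CPM in Eµ-PRMT5/TCL1 spleen 2, beside summed levels of 8 myeloid markers of 10336 and 6283 CPM.

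The light chain V gene was used to ask whether the genes differed between the leading B cell family of a library and its other B cells. Cells of 1 V gene need not be 1 clone, since V genes are shared by unrelated cells. The leading gene held 8.61% of the assigned B cells in Eµ-PRMT5 spleen 1 (Igkv3-2), 41.9% to 79.0% in Eµ-PRMT5 spleens 2, 3 and 5, and 99.7% in Eµ-PRMT5 spleen 4 (Igkv3-7). In the TCL1-carrying spleens it held from 141 of 282 cells to 99.9%. In Eµ-TCL1 spleens 2 and 4 few B cells could be assigned by the light chain (225 of 5140 and 282 of 2353), while Ighv12-3 held 99.7% and 99.3% of those assigned by the heavy chain. In 7 spleens both classes had at least 30 cells.

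Fcer2a was lower in cells of the leading V gene in 5 of these 7 spleens, and in all 4 Eµ-PRMT5 ones. Its level in the leading and in the other cells was 48.2 and 172 CPM in Eµ-PRMT5 spleen 1, 11.4 and 88.5 CPM in spleen 2, 1.46 and 22.7 CPM in spleen 3, and 0 and 121 CPM in spleen 5. In Eµ-TCL1 spleens 3 and 4 and Eµ-PRMT5/TCL1 spleen 4 both classes held 0 to 4 UMIs. Over the 7 spleens the log2 difference was -3.54 ± 0.71 (means 8.80 and 57.8 CPM, edgeR adjusted p = 0.116). The adjusted p was 6.35e-04 with no filter on low counts, where 0.581% of genes were called, and up to 0.910 over all other settings. Without Eµ-PRMT5 spleen 5 the log2 difference was -2.72 (adjusted p = 0.0318). Of the 9 genes 0 passed, against 43 of 10119 genes (0.425%), all 43 lower in the leading cells, and 2 of the 9 had an unadjusted p under 0.05, against 462 genes (4.57%). DESeq2 also called 0 of the 9, and 28 genes in all (0.277%). These counts over all genes, and that with no filter, include the light chain V genes that set the classes. In each library V genes other than the leading one are lower in the leading cells by construction. Their part in the counts and in the direction was not separated.

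Lymph nodes with at least 30 cells in both classes were not tested and are given as values. Fcer2a was at 1.72 and 244.1 CPM in the leading and other cells of Eµ-TCL1 lymph node 1, from 2 and 49 UMIs. In Eµ-PRMT5/TCL1 lymph node 3 it was at 0 and 98.5 CPM, from 0 and 8 UMIs, and in Eµ-TCL1 lymph node 3 at 0 and 1.36 CPM, from 0 and 2 UMIs. Nearly all assigned Fcer2a UMIs of these nodes thus came from the other cells, also in the node with the highest Fcer2a level of the 7. This does not hold for all nodes. Eµ-PRMT5/TCL1 lymph node 2 was left out, since 2630 of its 2633 assigned cells carried the leading V gene. Without that node, 98 of the 158 node Fcer2a UMIs remained.

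Cr2 was lower in the leading cells in 5 of 7 spleens, by a log2 difference of -1.52 ± 0.48 (edgeR adjusted p = 0.756). In the Eµ-PRMT5 spleens its level in leading and other cells was 17.2 and 96.8, 5.72 and 16.8, 2.92 and 19.5, and 14 and 22.7 CPM in spleens 1, 2, 3 and 5. All 4 pairs went the same way, the last by the least.

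The other genes took different directions in different mice. Cd5 was at 56.6 CPM in the leading and 4.58 CPM in the other cells of Eµ-PRMT5 spleen 2, at 34.0 and 12.6 CPM in spleen 5 and at 26.4 and 6.48 CPM in Eµ-TCL1 spleen 3. It was at 2.92 and 25 CPM in Eµ-PRMT5 spleen 3 and at 52.7 and 96.9 CPM in Eµ-PRMT5/TCL1 spleen 4. Cd5 was thus higher in the leading cells in 4 of 7 spleens (log2 difference 0.40 ± 0.71, edgeR adjusted p = 1).

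Cd93 was at 29.9 and 2.52 CPM in the leading and other cells of Eµ-TCL1 spleen 3 (197 and 7 UMIs) and at 25.4 and 5.56 CPM in Eµ-TCL1 spleen 4 (27 and 5 UMIs), the mice with the most Cd93. In Eµ-TCL1 lymph node 3, from the mouse of spleen 4, it was at 0.690 and 22.4 CPM (1 and 33 UMIs), but there another light chain V gene led (Igkv17-127, against Igkv4-91 in the spleen). By heavy chain, Ighv12-3 held 99.7% of the assigned cells of that node, as it held 99.3% in the spleen, so both light chain classes were nearly all of 1 heavy chain V gene. Cd24a was at 37.9 and 293 CPM in the leading and other cells of Eµ-PRMT5 spleen 1 and at 73.9 and 382 CPM in spleen 3, while in spleen 2 it was at 720 and 304 CPM. Cd44 went against Cd24a in the former 2 spleens, with 365 and 68.0 CPM in spleen 1 and 361 and 188 CPM in spleen 3. Leading cells of both of these spleens carried Igkv3-2.

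**Figure D5:**
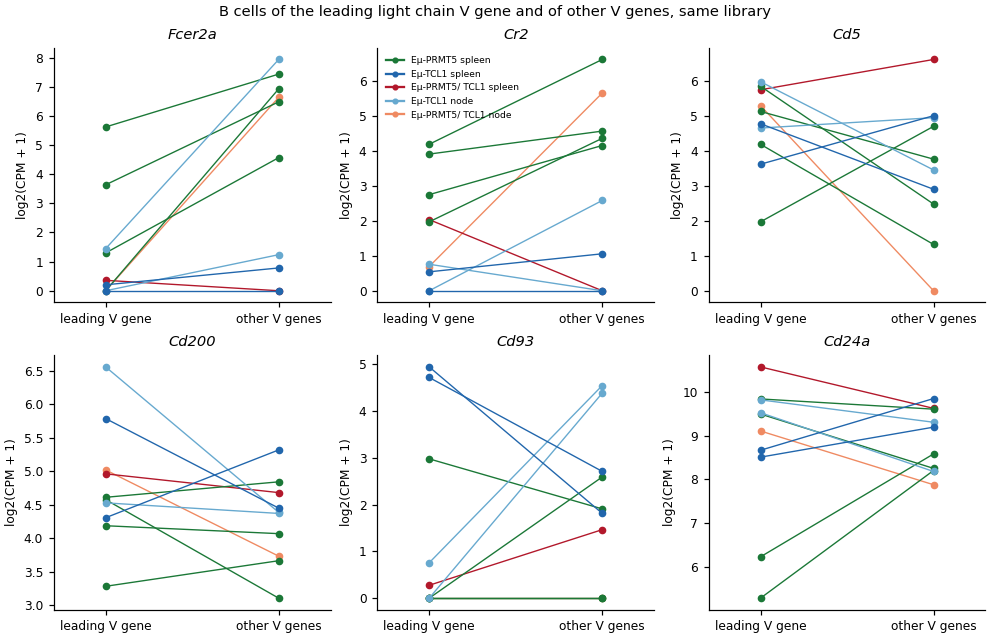
Level of 6 of the genes in B cells of the leading light chain V gene (left) and of other V genes (right) of the same library, on log2(CPM + 1) axes scaled to each gene; each line is 1 of 7 spleens or 3 lymph nodes with at least 30 cells in both classes. The Fcer2a lines of the 4 Eµ-PRMT5 spleens all go up to the right, and those of Cd5 and Cd24a go both ways.

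Single cells were used to see which of the genes were found together. In Eµ-PRMT5 spleens 1, 2, 3 and 5, 537, 45, 79 and 25 B cells had a Fcer2a UMI. Cr2 was detected in 34.8%, 20%, 21.5% and 16% of these cells and in 20.1%, 5.26%, 4.95% and 10.5% of the cells without one. Spn was detected in 1.49%, 4.44%, 5.06% and 0% of the cells with a Fcer2a UMI against 4.61%, 28.5%, 25.5% and 12.9% of the others.

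Cr2 was thus more frequent, and Spn less frequent, among Fcer2a-positive cells in each of the 4 spleens. In those spleens Cd44 was also less frequent among them, at 22.2%, 33.3%, 41.8% and 16% against 33.4%, 63.6%, 57.1% and 50.6%. Median depth was higher in the Fcer2a-positive cells of spleens 1 and 3 (5174 and 5031 UMIs against 4455 and 4222) and lower in those of spleens 2 and 5 (4475 and 3022 against 8372.5 and 7474). The part of depth in these shares was not tested. Eµ-PRMT5/TCL1 lymph node 2, with 46 positive cells, differed in part: Cr2 was found in 4.35% of these against 1.34% of the others, but Spn in 10.9% against 11.3% and Cd44 in 41.3% against 39.3%, at median depths of 7498 and 4936 UMIs. These shares are unthinned descriptions of cells of 5 libraries and were not tested.

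B cells with and without a Cd5 UMI were compared in TCL1-carrying spleens only. In 5 spleens with at least 30 cells in both classes (Eµ-TCL1 spleens 2 and 4 and Eµ-PRMT5/TCL1 spleens 1, 3 and 4), 1000 UMIs of each cell set the class and the remaining UMIs were compared. Of 7 of the genes, not including Fcer2a, 0 were called, against 45 of 11604 genes (0.388%), and 0 had an unadjusted p under 0.05, against 751 genes (6.47%, edgeR). DESeq2 called 0 of the 7, and 7 genes in all (0.0603%). The log2 difference was -0.27 ± 0.16 for Cd200 and within 0.13 of 0 for Ms4a1, Spn, Cd93, Cd24a and Cd44, while that of Cr2 was 0.33 ± 0.60. Cd5 itself was at 72.9 to 78.7 CPM in the remaining UMIs of the positive cells of the 3 Eµ-PRMT5/TCL1 spleens and at 43.6 to 53.8 CPM in those of the negative cells. In Eµ-TCL1 spleens 2 and 4 these were 15.2 and 59.2 CPM against 11.9 and 29.8 CPM, so the cells without a Cd5 UMI in the first draw still held Cd5 RNA in every spleen.

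Among 5651 genes with a mean of at least 20 CPM in spleen B cells, the 3 whose order over the 13 spleens was most like that of each gene were as follows, as a description of 1 set of 13 libraries that share genotype and depth. For Fcer2a they were Gmip and Zfp263 (Spearman rho 0.95 each) and Bet1l (0.94), and for Cr2 Ubap1, Szrd1 (0.97 each) and Lin7c (0.96). For Cd200 they were Stard5 (0.96), Lpcat4 (0.94) and Stambpl1 (0.92). For Cd5 they were Tmem154 (0.91), Rap1gap and Mdh1 (0.84 each), and for Ms4a1 Arhgef2 and Rp2 (0.96 each) and Pml (0.94). Those of Cd24a were Tbc1d10c and Cacna1e (0.97 each) and Mcl1 (0.95), and those of Cd44 were Arhgap24 (0.96), Add1 (0.93) and Letm2 (0.91). Spn and Cd93 had weaker matches, Prkca (0.88), Gm31718 (0.82) and Fdx1l (0.77) for Spn and Brk1 (0.83), Ifitm3 (0.75) and Ifitm2 (0.74) for Cd93.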

How the data were processed

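Single cells of 20 mouse libraries from 13 mice were sequenced by 10x 3′ chemistry (v2). The deposited matrices hold whole UMI counts per gene and barcode, made by the authors with Cell Ranger; the version is 3.1.0 per the file headers and 2.0.1 in the submitters' processing notes, which also name Seurat 2.2.1 and GRCm38. The 9 genes, the other gene lists and the gates were chosen with earlier results of these data known, and the genes named were all 9 plus, by rule, the 3 most alike in order over spleens among genes of at least 20 CPM.

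Barcodes were kept as cells with UMIs above a 10th of the 99th percentile of the top 3000, 200 or more genes and no more than 10% of UMIs from mitochondrial genes (87773 cells). Scrublet in scanpy 1.11.5 scored doublets, and the top 0.8% per 1000 cells of each library were removed (3542 cells; its own threshold marked 691), leaving 84231. For comparisons, UMIs were summed per library and gated class, with at least 20 cells a library, and tested with edgeR 4.0.16 in R 4.3.3 (TMM, filterByExpr, quasi-likelihood test, Benjamini-Hochberg over all genes tested, adjusted p under 0.05). Genotypes were compared without a block, tissues with the mouse and cell classes with the library as a block. The SE given with an edgeR log2 difference is its absolute value divided by the square root of its F statistic. It is not a separate estimate, and is least certain for genes near 0 in 1 group. DESeq2 1.42.0, RLE size factors, no low-count filter, other gates, kept doublet calls, Xist as a covariate (the sexes are mixed), a replicate-number block and leaving out each library were the alternatives. Shares of cells with a UMI were taken after thinning each cell to 1000 UMIs, and floors (3 counts) cover counting error only. Light chain V genes were assigned to cells with at least 5 light chain V UMIs, 80% of them from 1 gene.

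Levels of different genes are not compared, since 3′ capture differs by gene. Replicate numbers in the labels pair no animals: deviations of same-numbered spleens correlated at -0.109 to 0.165 (12 pairs) and of same-numbered lymph nodes at -0.172 to 0.285 (3 pairs), while tissues of the same mouse, given by the titles, correlated at 0.269 to 0.667 (7 pairs). The fits were tested on simulated counts with 1 fixed spread for all genes and changes only in genes with enough counts. That test does not cover genes with few or no UMIs in many libraries.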

Additional observations from a re-analysis of the deposited data

Results flagged for a closer look

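A value is listed here when 1 library of a group of 4 or 5 stood far from the others by Dixon's test at the 95% level. That was so for 17 of 67 gene and group combinations (25.4%), and each flagged value was the highest of its group. A chance rate of about 1 in 20 groups holds for normally distributed values. The test was run on CPM, which cannot be negative, so the 25.4% cannot show an excess of outlying libraries. The libraries and genes are also not independent of each other.

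In B cells, Eµ-PRMT5 spleen 1 held 3 of the 5 such values. Fcer2a was at 174 CPM there against 0 to 38.4 CPM in the other 4 Eµ-PRMT5 spleens, Cr2 at 85.1 CPM against 0 to 15.1 CPM, and Cd93 at 3.08 CPM against 0 to 0.594 CPM. It was also the spleen with the lowest leading V gene share, 8.61% of assigned B cells. Cd200 was at 109.7 CPM in Eµ-PRMT5/TCL1 lymph node 1 against 28.4 to 34.2 CPM in the other nodes of that genotype. Cd93 was at 0.249 CPM, from 2 UMIs, in Eµ-PRMT5/TCL1 lymph node 4, where the other 3 nodes had none, so any count would be flagged.

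In T cells, 1 double transgenic mouse gave 5 of the 12 values. In its spleen (spleen 4), Cd5 was at 561 CPM against 112 to 173 CPM and Ms4a1 at 8.07 CPM against 0.494 to 1.13 CPM. In its lymph node (node 1), Cd5 was at 471 CPM against 89.2 to 107 CPM, Ms4a1 at 5.38 CPM against 0.532 to 1.26 CPM, and Cd200 at 26.9 CPM against 1.47 to 3.06 CPM, from 63 T cells. Both Cd24a values came from another double transgenic mouse, the one whose name ends in RT. They were 234 CPM in spleen 1 against 4.12 to 36.3 CPM and 31.5 CPM in lymph node 2 against 3.46 to 5.38 CPM. In Eµ-TCL1 spleen 1, Cd200 was at 9.06 CPM against 0 to 0.969 CPM and Spn at 140.6 CPM against 52.8 to 55.3 CPM. Ms4a1 was at 4.48 CPM in Eµ-TCL1 spleen 2 against 0.363 to 0.647 CPM. Cr2 was at 0.703 CPM, from 2 UMIs, in Eµ-PRMT5 spleen 2, where the other 4 had none, so any count would be flagged. Cd93 was at 15.5 CPM in Eµ-PRMT5 spleen 4 against 0.0871 to 3.35 CPM.

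A gate of neutrophils and monocytes, outside the comparisons, carried 4 of the genes above the floor in each of the 13 spleens. Spn was at 37.0 to 135 CPM, Cd93 at 27.4 to 81.8 CPM, Cd24a at 176 to 596 CPM and Cd44 at 234 to 494 CPM. Fcer2a and Cr2 had no UMI in that gate in any library.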

How the results depend on the processing

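Counts of the 9 genes called were recomputed for 229 combinations of a comparison and an alternative, and stayed within 1.5 times the reported count in 215 of these. Except between B and T cells, the reported count was 0, so there this means only that 0 stayed 0. Those fits called few genes of any kind, so the 215 are little evidence of stability. DESeq2 called 3 genes for Eµ-PRMT5 against Eµ-TCL1 spleens, 2 for the double transgenic against Eµ-PRMT5 spleens, and 1 each in lymph node B cells by genotype and in the tissue comparison of B and of T cells. With no filter on low counts, 1 gene was called in the tissue comparison of B cells, 2 in that of T cells and 1 between leading and other V genes, beside 0.646%, 0.987% and 0.581% of all genes. Leaving out 1 library gave 0 to 3 genes for Eµ-PRMT5 against Eµ-TCL1 spleens (3 without Eµ-PRMT5 spleen 4, 1 without Eµ-PRMT5 spleen 5), and 0 to 1 for double transgenic against Eµ-PRMT5 spleens, for B cells by tissue and for the V gene classes. Apart from the fits without Eµ-PRMT5 spleen 4, the share of all genes called in these fits is not given here. Those counts are therefore a description. Calls over all genes moved more: for Eµ-PRMT5 against Eµ-TCL1 spleens there were 3 by edgeR, 675 by DESeq2, 343 without Eµ-PRMT5 spleen 4 and 26 with the block, and the tissue comparison of B cells gave 1, 206 by DESeq2 and 121 with no filter. The causes were not tested.

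With the replicate number as a block, which pairs no animals here, 1 gene was called for Eµ-PRMT5 against Eµ-TCL1 spleens (Cd200, -1.80 ± 0.21, edgeR adjusted p = 0.0366), and 7 of 8 counts did not move. Leaving the mouse out of the tissue fits changed 0 of 2 counts. A fit on Eµ-PRMT5 spleens 2 and 5, Eµ-TCL1 spleen 3 and Eµ-PRMT5/TCL1 spleen 4, where the leading V gene was clear, was chosen after seeing the data and also called 0 of the 9 genes.

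None of the 41 values with an unadjusted p under 0.05 changed sign under any alternative, and 68 of the 116 others did under at least 1. The 41 were picked by their p in the same data, and the alternatives refit mostly the same libraries. Their stable sign is therefore no separate support. Shares of cells with a UMI can only stay the same or fall when cells are thinned, so their change is no check of the results. Where a group held 0 UMIs, as for Fcer2a in the T cells of Eµ-TCL1 spleens, the share was 0 either way. Groups of 3 to 5 mice, 50 to 63 T cells in the smallest libraries and Fcer2a totals of 9 and 33 UMIs in the B cells of Eµ-TCL1 and Eµ-PRMT5/TCL1 spleens limit all of this, and Fcer2a had no test in the 4 spleen fits without Eµ-PRMT5 spleen 1, 2, 3 or 5.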

Other observations

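Plasma cells, gated by at least 20 Jchain UMIs and kept out of the B cells, also carried some of the genes. Ms4a1 ranged from 33.4 to 256 CPM among the 14 libraries with at least 20 such cells and Cd24a from 197 to 775 CPM, while Fcer2a did not exceed 1.43 CPM and Cr2 1.90 CPM. These values were not compared between genotypes.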
